A study of Mus musculus with 2 samples.

Results

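The survival of motor neuron (SMN) complex was measured at the RNA level in mesenchymal cells of mouse limb muscle, the fibro-adipogenic progenitors (FAPs), by droplet scRNA-Seq. Its members were taken by gene symbol from the count tables: *Smn1*, *Gemin2*, *Gemin4*, *Gemin5*, *Gemin6*, *Gemin7*, *Gemin8*, *Ddx20* and *Strap*, which are 9 of the 31053 genes counted. The study set C57BL/6 mice in which *Prx1-Cre*, active in limb mesenchyme, recombines floxed *Bap1* (Prx1-Cre;Bap1f/f, hereafter *Bap1* ΔMPC) against littermates that carry the floxed alleles without Cre (Bap1f/f, hereafter *Bap1* WT). All mice were 3 weeks old. FAPs were sorted from dissociated limb muscle as live Lin- Vcam1- Sca1+ cells, and 1 library was made for each genotype. The number of mice behind a library is not given in the sources used here. Because Bap1 is a deubiquitinating enzyme that the study links to the SMN protein, the question put to these counts is how much SMN complex RNA the libraries held, and in which FAPs.

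The SMN complex is the cytoplasmic machine that loads the ring of Sm proteins onto small nuclear RNAs (snRNAs), which then return to the nucleus as the snRNPs of the spliceosome. SMN oligomers form its core, and the Gemin proteins and Strap, also called unrip, are bound around that core. Loss of *SMN1* in humans causes spinal muscular atrophy, a disease of motor neurons and muscle.

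Cells numbered 4103 in the *Bap1* WT-labelled library and 4378 in the *Bap1* ΔMPC-labelled library. Their unique molecular identifiers (UMIs), each standing for 1 captured transcript, came to 51015705 and 49540066, and the median cell had 12232 and 11017.5. The libraries shared 5 cell barcodes. For each gene, the UMIs of a group of cells were added up and divided by all UMIs of that group, in counts per 1000000 UMIs (CPM). Levels are thus counts of 3′ ends, which are not divided by transcript length. Values in parentheses are exact 95% intervals, and they cover counting error only. They are Poisson for CPM, Clopper-Pearson for shares and for ratios of CPM, and from a conditional odds ratio for differences between ratios. With 1 library per genotype there is no replicate check, so no test was run, and a genotype cannot be told apart from a library.

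*Bap1* itself had 897 UMIs or 17.6 CPM (16.5 to 18.8) in the *Bap1* WT-labelled library and 1072 UMIs or 21.6 CPM (20.4 to 23.0) in the *Bap1* ΔMPC-labelled library. The targeted gene was therefore not lower in the library labelled as deleted. A count for a whole gene is blind to the exons a transcript held, so the deletion is not checked by it, and every direction given here is that of the libraries as labelled. By other measurements, the paper reports that *Bap1* was disrupted in FAPs of *Bap1* ΔMPC mice. The cells carried the FAP markers *Pdgfra* (17691 and 14766 UMIs) and *Ly6a*, which encodes Sca1 (83671 and 99174 UMIs). *Ptprc*, which encodes CD45, and the muscle stem cell genes *Pax7*, *Myf5* and *Myod1* had 0 UMIs in both libraries. The authors had removed cells with high levels of markers of other cell types, so these zeros are no separate check of cell identity. *Vcam1*, the negative sort marker, had 1916 and 1017 UMIs, and *Pecam1*, which encodes CD31, had 113 and 241.

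Cells were divided by the markers of FAP subpopulations. Dpp4-type cells had at least 25 UMIs per 10000 from *Pi16*, *Sema3c*, *Anxa3* and *Efemp1* together, and Cxcl14-type cells lay below that value and had at least 5 UMIs per 10000 from *Cxcl14*. There were 1050 Dpp4-type cells (25.6%) in the *Bap1* WT-labelled library and 1251 (28.6%) in the *Bap1* ΔMPC-labelled library. Cxcl14-type cells numbered 569 (13.9%) and 1020 (23.3%), and 2484 and 2107 cells were in neither group. These groups are ranges of a score. *Cxcl14*, which alone sets the Cxcl14-type group, itself had 232 and 690.1 CPM over all cells, a log2 ratio of 1.57, and 1446 and 2807 CPM within that group. There 4 of 6 other Cxcl14-type markers were over 1.5-fold lower in the *Bap1* ΔMPC-labelled library, with a median log2 ratio of -1.38. Every Cxcl14-type ratio between the libraries thus compares cells chosen by a gene that differs between them. The 4 genes of the Dpp4-type score also differed within the Dpp4-type group, with a median absolute log2 ratio of 0.45 and 0 past 1.5-fold. They summed to 6613 and 5459 CPM there, and *Cxcl14* had a log2 ratio of 2.65. How far these differences bear on the ratios of either group was not tested. Just below the Dpp4-type threshold, from 20 to 25 UMIs per 10000, lay 115 and 165 cells, and just above it, up to 30, lay 95 and 172. Outside the Dpp4-type group, 774 and 714 cells had some *Cxcl14* below 5 UMIs per 10000, and 120 and 131 had 5 to 7. Genes that took no part in the division followed it: *Dpp4* had 298 CPM in Dpp4-type and 28.1 CPM in Cxcl14-type cells of the *Bap1* WT-labelled library, against 268 and 9.59 CPM in the same groups of the *Bap1* ΔMPC-labelled library. *Smoc2*, which marks Cxcl14+ FAPs, had the opposite order, with 259 and 2737 CPM in the former library and 166 and 842 CPM in the latter. Over the lists, 5 of 5 other Dpp4-type markers were higher and 6 of 6 other Cxcl14-type markers lower in Dpp4-type cells of both libraries.

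The SMN complex genes were spread over a wide range of levels, and their order was nearly the same in both libraries. *Strap* was highest, with 86.7 CPM (84.2 to 89.3) in the *Bap1* WT-labelled library and 91.1 CPM (88.4 to 93.8) in the *Bap1* ΔMPC-labelled library. *Gemin7* followed with 64.4 and 62.9 CPM, *Smn1* with 23.8 and 24.2 CPM, and *Gemin6* with 9.23 and 9.95 CPM. In both libraries the intervals of these 4 genes were clear of each other and of the next gene. *Ddx20*, *Gemin5* and *Gemin8* came next, between 6.53 and 7.21 CPM in the *Bap1* WT-labelled library and between 4.88 and 6.86 CPM in the *Bap1* ΔMPC-labelled library. Neighbors in that order could not be separated by their counts, and *Ddx20* and *Gemin5* changed places between the libraries. *Gemin2* was lower, with 4.998 and 3.86 CPM. Its interval was clear of that of *Gemin8* in the *Bap1* WT-labelled library and overlapped it in the other library. *Strap* and *Gemin7* together made up 71.9% and 73.3% of all UMIs of the complex.

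*Gemin4* was at the floor of the measurement, with 4 UMIs in 4 cells of the *Bap1* WT-labelled library and 3 UMIs in 3 cells of the *Bap1* ΔMPC-labelled library. Of its 3734 annotated exonic bases, 3353 are also exonic in *Glod4*, which runs on the same strand, and these include all of the 1000 bases nearest its 3′ end, where this assay reads. *Glod4* had 1652 and 1450 UMIs. Transcripts of the 2 genes cannot be told apart over the shared bases, so the level of *Gemin4* is uncertain, and no ratio is drawn from it. The other 8 members share no exonic base with another gene on their strand, and they had at least 191 UMIs in each library.

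**Figure D1:**
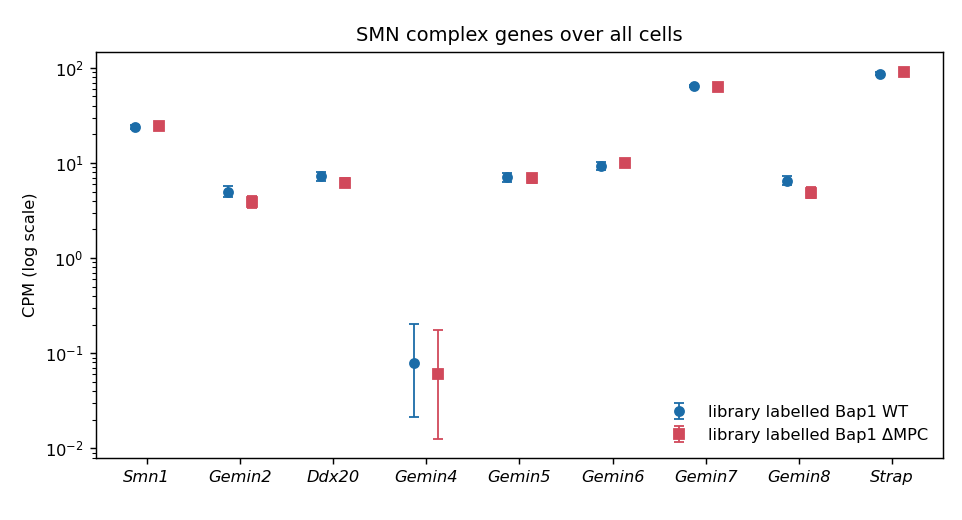
Levels of the 9 SMN complex genes over all cells, in CPM on a log scale, with exact Poisson 95% intervals for counting error. Circles are the *Bap1* WT-labelled library and squares the *Bap1* ΔMPC-labelled library; *Strap*, *Gemin7*, *Smn1* and *Gemin6* keep their order in both, and *Gemin4* stands apart at 4 and 3 UMIs.

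*Smn1*, the core of the complex, was compared first. It had 1216 UMIs or 23.8 CPM (22.5 to 25.2) in the *Bap1* WT-labelled library and 1199 UMIs or 24.2 CPM (22.9 to 25.6) in the *Bap1* ΔMPC-labelled library, a log2 ratio of 0.022 (-0.094 to 0.14). The intervals overlapped almost wholly, and the ratio's own interval runs from 0.937-fold to 1.10-fold. In Dpp4-type cells *Smn1* had 327 and 350 UMIs, or 23.2 CPM (20.7 to 25.8) and 23.7 CPM (21.3 to 26.3), with a log2 ratio of 0.033 (-0.19 to 0.25). In Cxcl14-type cells it had 186 and 269 UMIs, or 27.8 CPM (23.9 to 32.0) and 23.9 CPM (21.1 to 26.9), with a log2 ratio of -0.22 (-0.49 to 0.061). Among the Dpp4-type, Cxcl14-type and remaining cells, the highest value of *Smn1* was in Cxcl14-type cells of the *Bap1* WT-labelled library, and no difference between the libraries was detectable at this depth in either subpopulation. In the remaining cells it had 23.3 and 24.7 CPM. Over the 6 combinations of library and cell group, its highest level was 1.20 times its lowest.

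*Gemin2*, which holds SMN and the open ring of Sm proteins together, had 255 UMIs or 4.998 CPM (4.40 to 5.65) in the *Bap1* WT-labelled library and 191 UMIs or 3.86 CPM (3.33 to 4.44) in the *Bap1* ΔMPC-labelled library, a log2 ratio of -0.37 (-0.65 to -0.098). In Dpp4-type cells *Gemin2* had 75 UMIs or 5.31 CPM (4.18 to 6.66) in the *Bap1* WT-labelled library and 41 UMIs or 2.78 CPM (1.99 to 3.77) in the *Bap1* ΔMPC-labelled library. The intervals did not overlap, and the log2 ratio was -0.94 (-1.52 to -0.37). In Cxcl14-type cells it had 32 and 51 UMIs, or 4.77 and 4.53 CPM, with a log2 ratio of -0.076 (-0.74 to 0.61), which moved to -0.81 when every cell was thinned to 5000 UMIs. The ratio of Dpp4-type cells differed from that of Cxcl14-type cells by -0.86 on the log2 scale (-1.76 to 0.039), an interval that reaches 0, so the counts do not separate the subpopulations. Cells with a *Gemin2* UMI made up 7.05% (5.57% to 8.77%) and 3.04% (2.16% to 4.15%) of Dpp4-type cells, and 2.46% and 1.08% after thinning. In Cxcl14-type cells the shares were 5.45% and 4.61%, and 2.86% and 1.64% after thinning.

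*Gemin8*, which joins the *Gemin6*-*Gemin7* pair to SMN, was also lower in the *Bap1* ΔMPC-labelled library. It had 333 UMIs or 6.53 CPM (5.85 to 7.27) in the *Bap1* WT-labelled library and 242 UMIs or 4.88 CPM (4.29 to 5.54) in the *Bap1* ΔMPC-labelled library, a log2 ratio of -0.42 (-0.66 to -0.17) with intervals that did not overlap. In Cxcl14-type cells it had 59 and 58 UMIs, or 8.80 CPM (6.70 to 11.4) and 5.15 CPM (3.91 to 6.66), with a log2 ratio of -0.77 (-1.32 to -0.23). In Dpp4-type cells the values were 6.02 and 5.49 CPM, with a log2 ratio of -0.13 (-0.59 to 0.32), and in the remaining cells 6.26 and 4.38 CPM, with one of -0.51 (-0.88 to -0.16). The difference between the *Gemin8* ratios of Dpp4-type and Cxcl14-type cells, 0.64 (-0.084 to 1.36), again had an interval that reached 0, so the counts do not place the gap of either gene in a subpopulation.

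*Gemin6* and *Gemin7* form a pair that folds like Sm proteins. *Gemin6* had 471 and 493 UMIs over all cells, with a log2 ratio of 0.11 (-0.077 to 0.29). In Dpp4-type cells the ratio was 0.17 (-0.17 to 0.51), and in Cxcl14-type cells it had 53 UMIs or 7.91 CPM (5.92 to 10.3) and 126 UMIs or 11.2 CPM (9.32 to 13.3), with a ratio of 0.50 (0.027 to 0.99). The CPM intervals overlapped there, and the ratio was 0.041 with *Cxcl14* at 10 or more, 0.19 with thinned cells and 0.24 with cells weighted equally. *Gemin7* had 3285 and 3117 UMIs over all cells, with a log2 ratio of -0.033 (-0.10 to 0.038), which moved out of that interval to -0.13 with TMM factors and to -0.12 without the most abundant genes. Its ratios were 0.093 (-0.042 to 0.23) in Dpp4-type and -0.17 (-0.34 to 0.0059) in Cxcl14-type cells, and they differed by 0.26 (0.040 to 0.48), a small difference whose interval lay above 0. The Dpp4-type ratio was 0.26 with thinned cells.

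*Ddx20* encodes the DEAD-box protein Gemin3, and *Gemin5* the subunit that recognizes snRNAs. *Ddx20* had 368 UMIs or 7.21 CPM (6.50 to 7.99) in the *Bap1* WT-labelled library and 307 UMIs or 6.20 CPM (5.52 to 6.93) in the *Bap1* ΔMPC-labelled library, a log2 ratio of -0.22 (-0.44 to 0.0034). In Dpp4-type cells the ratio was -0.39 (-0.79 to 0.012) on 120 and 96 UMIs, and in Cxcl14-type cells it was 0.0016 (-0.56 to 0.57) on 44 and 74. *Gemin5* had 361 and 340 UMIs over all cells, with a ratio of -0.044 (-0.26 to 0.17). In Dpp4-type cells its ratio was -0.26 (-0.73 to 0.20), or -0.64 with thinned cells, and in Cxcl14-type cells it was -0.10 (-0.58 to 0.38), or 0.41 with thinned cells. Its direction in Cxcl14-type cells thus turned after thinning, and whether the depth or the draw of UMIs turned it was not tested. The all-cell interval of *Ddx20* ends close to 0, and its ratio was -0.32 with TMM factors, -0.30 without the most abundant genes and -0.39 with thinned cells.

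*Strap* encodes a WD-repeat protein bound to the *Gemin6*-*Gemin7* pair and is also known for its part in TGF-β signaling. Over all cells its log2 ratio was 0.070 (0.010 to 0.13), on 4424 and 4511 UMIs, and it was 0.089 (-0.027 to 0.21) in Dpp4-type and 0.076 (-0.066 to 0.22) in Cxcl14-type cells. The all-cell direction rested on the scaling: the ratio was -0.027 with TMM factors and -0.014 with totals that left out mitochondrial, ribosomal protein and the 50 most abundant genes.

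**Figure D2:**
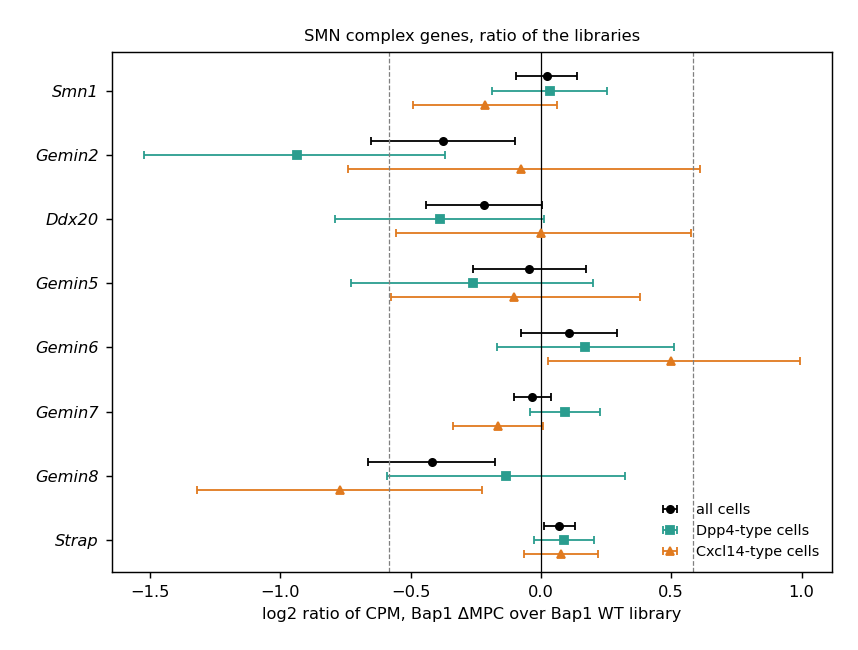
Log2 ratio of CPM of 8 SMN complex genes, *Bap1* ΔMPC-labelled library over *Bap1* WT-labelled library, with exact 95% intervals for counting error, over all cells (circles), Dpp4-type (squares) and Cxcl14-type cells (triangles). Dashed lines mark 1.5-fold; *Gemin2* lies beyond it in Dpp4-type cells (-0.94) and *Gemin8* in Cxcl14-type cells (-0.77), and *Smn1* lies near 0 over all cells (0.022).

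The sizes were then counted over the members, beside all genes with 20 or more UMIs in both libraries together. *Gemin4* did not reach that minimum, which left 8 members. Over all cells, 0 of 8 differed by over 1.5-fold between the libraries, against 23.6% of 14729 genes (12.8% higher and 10.8% lower in the *Bap1* ΔMPC-labelled library). In the range of UMIs that the members span, 446 to 8935, the share was 13%. In Dpp4-type cells 1 of 8 passed, *Gemin2*, against 20% of all genes and 14.3% of those in the members' range. In Cxcl14-type cells 1 of 8 passed, *Gemin8*, against 24% and 18.1% (0 of 8 with *Cxcl14* at 2 or more, where *Gemin8* had -0.55), and in the remaining cells 0 of 8, against 23.3%. A single gene of 8 is close to each of these shares, so the counts set the complex apart in neither subpopulation. The median absolute log2 ratio over all cells was 0.089 for the members, 0.26 for all genes and 0.21 for genes in the members' range.

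Summed over the 9 members and scaled by totals, the libraries had nearly equal values, which depended on that scaling. The sum was 10717 UMIs or 210.1 CPM (206.1 to 214.1) in the *Bap1* WT-labelled library and 10403 UMIs or 209.99 CPM (205.98 to 214.1) in the *Bap1* ΔMPC-labelled library, a ratio of 0.9996 (0.973 to 1.03). In Dpp4-type cells it was 201 CPM (194 to 209) and 206 CPM (199 to 214), and in Cxcl14-type cells 229 CPM (217 to 240.5) and 221 CPM (213 to 230.2), with intervals that overlapped in both. The sum is mostly *Strap* and *Gemin7*. Without these it was 59.0 CPM (56.9 to 61.1) and 56.0 CPM (53.95 to 58.1), a log2 ratio of -0.074 (-0.15 to 0.00094), a sum chosen after seeing the data. With TMM factors, which put the median log2 ratio of all genes at -0.0013 where totals put it at 0.096, the log2 ratio of the full sum was -0.098, and without the most abundant genes in the totals it was -0.085. Both lie outside the interval of the ratio by totals, -0.040 to 0.038, so whether the sums differ is not settled by these counts.

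Single cells carried few of these molecules. *Smn1* was found in 25.5% (24.1% to 26.8%) of cells in the *Bap1* WT-labelled library and in 23.9% (22.6% to 25.2%) of those in the *Bap1* ΔMPC-labelled library, with at most 5 and 4 UMIs in a cell. The depth per cell differed, and after thinning every cell to 5000 UMIs, which left out 120 and 210 shallower cells, the shares were 10.7% (9.80% to 11.7%) and 11.4% (10.5% to 12.4%). Their order thus turned after thinning. A cell had UMIs of a median of 2 members in either library, and at most of 6. No member was found in 11.3% and 14.5% of cells, and in 35.8% and 35.7% after thinning. No cell type that lacks SMN is present to give the share that free RNA would leave. As a reference, *Hbb-bs*, a globin gene that FAPs do not express, was found in 6.17% and 8.34% of cells, and *Acta1*, of muscle fibers, in 12.5% and 6.74%. *Gemin2*, at 6.07% and 4.07%, lay below both references in both libraries. *Gemin8*, at 7.80% and 5.25%, and *Ddx20*, at 8.63% and 6.62%, lay between them in the former library and below both in the latter. *Gemin5*, at 8.34% and 7.35%, lay between them in both libraries, and *Gemin6*, at 10.8% and 10.2%, in the former only. Shares of this size are not read as cells that express the gene.

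Within a library the subpopulations share handling and sequencing, so Dpp4-type and Cxcl14-type cells were compared next. The summed complex had log2 ratios, Dpp4-type over Cxcl14-type, of -0.18 (-0.27 to -0.094) in the *Bap1* WT-labelled library and -0.10 (-0.18 to -0.026) in the *Bap1* ΔMPC-labelled library. These were small and rested in part on the settings: with TMM factors they were -0.094 and -0.026, and with thinned cells -0.16 and -0.017. Without *Strap* and *Gemin7* they were -0.14 (-0.31 to 0.027) and -0.14 (-0.29 to 0.0064), with intervals that reach 0. *Strap* carried the most UMIs and had ratios of -0.21 (-0.35 to -0.065) and -0.19 (-0.31 to -0.077). In the *Bap1* WT-labelled library, 1 of 8 members passed 1.5-fold, against 29.1% of all genes. This was *Gemin5*, with 6.09 CPM (4.87 to 7.52) in Dpp4-type and 9.25 CPM (7.09 to 11.9) in Cxcl14-type cells, a log2 ratio of -0.60 (-1.09 to -0.11). At 1.52-fold it stood just past the limit, and 0 members passed with TMM factors, without the most abundant genes, without the shallowest and deepest cells, without cycling cells, or with lower thresholds of either score, while 3 passed with thinned cells or with *Cxcl14* at 10 or more. In the *Bap1* ΔMPC-labelled library, 2 of 8 passed, against 30.5%. *Gemin5* was among them again, with 5.08 CPM (3.99 to 6.37) and 8.62 CPM (6.99 to 10.5), a log2 ratio of -0.76 (-1.22 to -0.31) and intervals that did not overlap. The other was *Gemin2*, with 2.78 and 4.53 CPM and a log2 ratio of -0.71 (-1.34 to -0.084). Of the genes in the members' range of UMIs, 794 higher and 905 lower of 7863 passed in the *Bap1* WT-labelled library, and 876 higher and 1231 lower of 8599 in the *Bap1* ΔMPC-labelled library, so nothing particular to the complex is read from the counts. *Smn1* had ratios of -0.26 (-0.52 to 0.0070) and -0.012 (-0.24 to 0.22).

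Cycling cells, those with at least 5 UMIs per 10000 from 8 genes of mitosis such as *Mki67* and *Top2a*, held more SMN complex RNA. There were 50 such cells (1.22%) in the *Bap1* WT-labelled library and 96 (2.19%) in the *Bap1* ΔMPC-labelled library. The sum was 336 CPM (294 to 383) in cycling and 208 CPM (204 to 212) in other cells of the *Bap1* WT-labelled library, a log2 ratio of 0.69 (0.50 to 0.88). It was 282 CPM (253 to 312) and 208 CPM (204 to 212) in the *Bap1* ΔMPC-labelled library, a log2 ratio of 0.44 (0.28 to 0.59). The intervals of cycling and other cells were apart in both libraries. The median log2 ratio of all genes in this comparison was 0.24 and 0.10. For genes in the members' range of UMIs it was 0.074 and 0.029. *Gemin6* was higher in cycling cells by log2 ratios of 1.78 (1.07 to 2.41) and 1.74 (1.24 to 2.21), on 21 and 40 UMIs in those cells. *Gemin2* had ratios of 2.10 (1.20 to 2.87) and 1.47 (0.53 to 2.28) on 14 and 13 UMIs. *Ddx20* had ratios of -0.31 (-2.19 to 1.06) on 4 UMIs and 1.48 (0.76 to 2.12) on 21, with intervals that overlap. *Smn1* had 24 and 40 UMIs in cycling cells and ratios of 0.57 (-0.080 to 1.15) and 0.39 (-0.11 to 0.84). *Strap* had ratios of 0.74 (0.43 to 1.03) and 0.19 (-0.070 to 0.44), the latter with an interval that reaches 0. FAP markers had 24202 and 40010 CPM in cycling and other cells of the *Bap1* WT-labelled library, and 19735 and 26602 CPM in the other library. Muscle fiber genes had 55.6 and 73.6 CPM in the former and 104 and 41.8 CPM in the latter, where adipocyte genes had 48.7 and 5.20 CPM. The muscle fiber value of cycling cells in the latter rests on 133 UMIs. *Acta1* was found there in 5 of 96 cycling cells, with up to 24 UMIs in a cell. The part of these genes was not tested.

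Over 1.5-fold, 5 of 8 members passed in the *Bap1* WT-labelled library, 4 higher and 1 (*Gemin5*, with 3 UMIs in cycling cells) lower, against 48.3% of all genes, and 3 of 8, all higher, in the *Bap1* ΔMPC-labelled library, against 40.6%. Of the genes in the members' range of UMIs, 1676 higher and 1440 lower of 8038 passed in the *Bap1* WT-labelled library, and 1480 higher and 1351 lower of 8462 in the *Bap1* ΔMPC-labelled library. In the shares over all genes, a 0 in the small cycling group was set to 3 counts, which reads as higher for genes with few UMIs. With 8 members and no test, nothing particular to the complex is read from these counts. With cycling cells left out, the ratios between the libraries were -0.38 (-0.66 to -0.091) for *Gemin2* and -0.41 (-0.66 to -0.16) for *Gemin8*, nearly as with all cells, and that of *Ddx20* was -0.29 (-0.52 to -0.060).

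**Figure D3:**
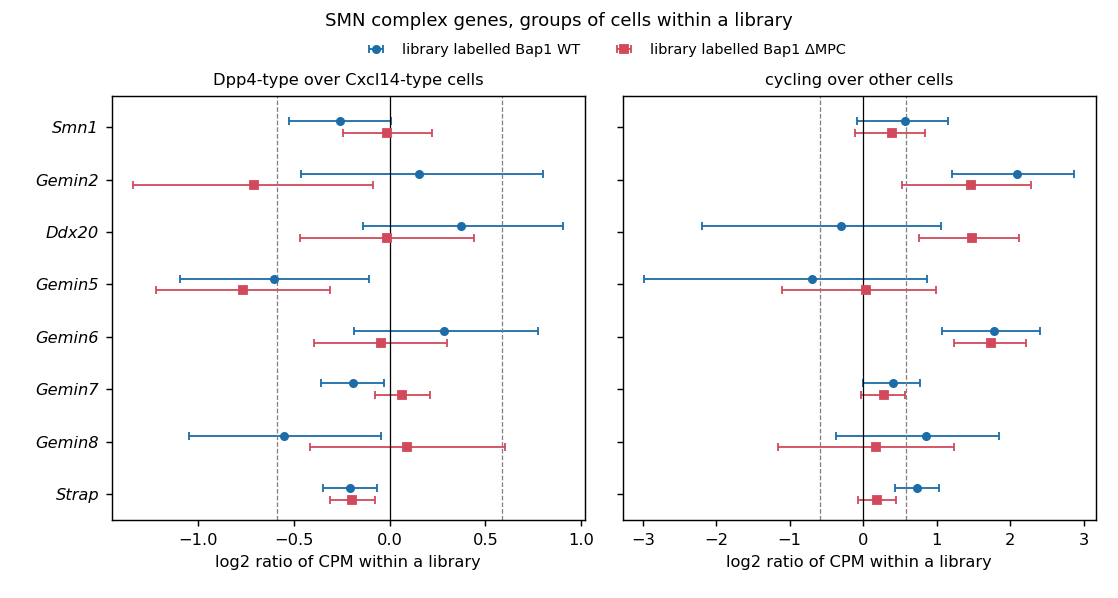
Log2 ratio of CPM of 8 SMN complex genes between groups of cells of the same library, with exact 95% intervals for counting error; circles are the *Bap1* WT-labelled library and squares the *Bap1* ΔMPC-labelled library. Left, Dpp4-type over Cxcl14-type cells, where *Gemin5* is lower by over 1.5-fold (dashed) in both libraries, at 1.52-fold in the *Bap1* WT-labelled library, where other settings take it below that limit; right, cycling over other cells, where *Gemin2* and *Gemin6* are higher by over 1.5-fold in both.

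The genes that act before, with and after the SMN complex were taken from 8 lists: Sm proteins, Lsm proteins, the methylosome, snRNA export and snRNP import, snRNA transcription and processing, proteins of the major and of the minor snRNPs, and Cajal body proteins. Of 103 genes, 102 had enough UMIs, and over all cells 2 were over 1.5-fold higher and 0 lower in the *Bap1* ΔMPC-labelled library, with a median log2 ratio of 0.082, where 12.8% of all genes were higher and 10.8% lower. In the SMN complex members' range of UMIs the share was 13% in both directions together. The range of UMIs of the lists themselves was not matched. Among the 8 Sm proteins, the cargo of the complex, the median was 0.23 and 1 passed. This was *Snrpn*, an imprinted gene made mainly in neurons, with 264 UMIs or 5.17 CPM in the *Bap1* WT-labelled library and 482 UMIs or 9.73 CPM in the *Bap1* ΔMPC-labelled library, a log2 ratio of 0.91 (0.69 to 1.13). It shares 267 of the 1000 exonic bases nearest its 3′ end with other annotated genes on its strand, so its counts are uncertain. *Snrpb*, its close relative and the most abundant Sm gene, had 214 and 252 CPM. Among 13 Cajal body genes, with a median of 0.14, 1 passed as well: *Wrap53*, which brings small RNAs of the Cajal body to that body, had 190 UMIs or 3.72 CPM and 432 UMIs or 8.72 CPM, a log2 ratio of 1.23 (0.98 to 1.48).

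The other 6 of these lists had no gene past 1.5-fold over all cells. Their medians were 0.024 over 10 Lsm genes, led by *Lsm4*, and -0.022 over 6 methylosome genes, led by *Clns1a*. They were 0.13 over 8 genes of export and import, led by *Ran*, and 0.072 over 20 genes of snRNA transcription and processing, led by *Ints6*. Major snRNP proteins had a median of 0.12 over 27 genes, led by *Sf3b1*, and minor ones of -0.0010 over 10, led by *Zcrb1*. All of these lie near the median of all genes, 0.096.

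In the subpopulations the same 8 lists gave a few more names. Between the libraries, 14.3% of genes in the SMN complex members' range of UMIs passed 1.5-fold in Dpp4-type cells and 18.1% in Cxcl14-type cells. In Dpp4-type cells 1 of 102 genes was higher and 2 were lower, where 20% of all genes passed in either direction: *Wrap53* had a log2 ratio of 0.76 (0.29 to 1.24), *Ints10*, of the Integrator complex that trims snRNAs, one of -0.74 (-1.06 to -0.41), and *Snrnp25*, of the minor spliceosome, one of -0.59 (-1.06 to -0.13). In Cxcl14-type cells 2 of 102 were higher and 0 lower, where 24% of all genes passed. *Snrpn* had 18 UMIs or 2.69 CPM in the *Bap1* WT-labelled library and 109 UMIs or 9.68 CPM in the *Bap1* ΔMPC-labelled library, a log2 ratio of 1.85 (1.12 to 2.66), and *Wrap53* had 22 UMIs or 3.28 CPM and 178 UMIs or 15.8 CPM, a log2 ratio of 2.27 (1.62 to 2.98). Both genes were thus further apart between the libraries in Cxcl14-type than in Dpp4-type cells, where *Snrpn* had 8.22 and 10.9 CPM. Why the subpopulations differ in this was not tested.

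A further list held 16 partners and modifiers of SMN, many of them proteins of actin, of microtubules or of mRNA binding. Over all cells its median log2 ratio was 0.24, and 3 were higher and 0 lower past 1.5-fold. With 23.6% of all genes past that fold, this count says nothing particular of the list. *Pfn2*, a profilin, had 27.9 and 45.3 CPM, a log2 ratio of 0.70 (0.60 to 0.80). *Stmn1*, which destabilizes microtubules and is also a gene of dividing cells, had 27.8 and 46.6 CPM, a ratio of 0.75 (0.65 to 0.85), and *Igf2bp1*, an mRNA-binding protein, had 16 and 52 UMIs. Of the 1416 and 2311 UMIs of *Stmn1*, only 417 and 677 lay outside cycling cells, and cycling cells were more frequent in the *Bap1* ΔMPC-labelled library. With them left out *Stmn1* had 8.29 and 14.0 CPM, and the ratio was 0.76 (0.58 to 0.94). The cause of the gap was not tested.

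In Dpp4-type cells 3 of the 16 were higher and 1 lower, where 20% of all genes passed. *Chp1*, an inhibitor of calcineurin and regulator of sodium exchange whose reduction is known to ease SMA models, was higher there, with 91.8 and 142 CPM and a log2 ratio of 0.63 (0.53 to 0.73), and also had 0.55 (0.49 to 0.62) over all cells and 0.51 (0.31 to 0.71) in Cxcl14-type cells. *Ncald*, a calcium sensor of which the same is known, was lower there, with 12.7 and 7.58 CPM and a ratio of -0.74 (-1.10 to -0.39), beside -0.34 (-0.44 to -0.24) over all cells. *Pfn2* had a ratio of 0.75 there and 0.62 in Cxcl14-type cells, and *Stmn1* one of 1.21 in Cxcl14-type cells.

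The last list held 11 genes of ubiquitin and of SMN turnover, with a median log2 ratio of 0.17 over all cells, and 1 passed 1.5-fold, where 23.6% of all genes did. *Uchl1*, a ubiquitin hydrolase abundant in neurons, had 3541 UMIs or 69.4 CPM (67.1 to 71.7) in the *Bap1* WT-labelled library and 7904 UMIs or 159.5 CPM (156 to 163) in the *Bap1* ΔMPC-labelled library, a log2 ratio of 1.20 (1.14 to 1.26). It was far higher in Dpp4-type cells, with 187 CPM (180.2 to 195) and 392 CPM (382 to 402), than in Cxcl14-type cells, with 6.71 CPM (4.90 to 8.98) and 26.9 CPM (24.0 to 30.1). The log2 ratio between the libraries was 1.06 (0.997 to 1.13) in the former and 2.00 (1.55 to 2.49) in the latter. *Uchl1* was found in 69.8% and 80.5% of Dpp4-type cells and in 5.98% and 18.3% of Cxcl14-type cells. In both subpopulations the *Bap1* ΔMPC-labelled library was thus the higher, and in both libraries the Dpp4-type cells were. The most abundant gene of the list was *Ubb*.

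The gene said to lead a list is the one with the most UMIs over both libraries together. FAP markers summed to 39798.5 and 26426 CPM, led by *Col1a1*, the genes of the Dpp4-type score to 2269 and 2013 CPM, led by *Pi16*, and those of the cycling score to 55.6 and 96.2 CPM, led by *Mki67*. Within the *Bap1* ΔMPC-labelled library, *Dcn* led the FAP markers and *Top2a* the cycling score. Signals of other cell types are given beside these values. Genes of muscle fibers, all 8 of them detected, summed to 73.4 and 43.4 CPM, led by *Mylpf*, and 5 erythroid genes to 37.8 and 23.6 CPM, led by *Hbb-bs*. Within the libraries, *Acta1* led the muscle fiber genes in the *Bap1* WT-labelled and *Tnnt3* in the *Bap1* ΔMPC-labelled library. Of the 1326 and 800 *Hbb-bs* UMIs, the cell with the most held 989 and 194, so the gap of the erythroid sum rests in large part on single cells. Adipocyte genes summed to 0.255 and 6.32 CPM, led by *Plin1*, tendon genes to 69.6 and 109.7 CPM, led by *Tnmd*, and Schwann cell genes to 21.5 and 67.9 CPM, led by *S100b*. Within the *Bap1* WT-labelled library, *Plin1* had only 2 of 13 adipocyte UMIs, and *Fmod* led the tendon genes. *S100b* alone had 856 and 3154 of the 1096 and 3363 Schwann cell UMIs. The Schwann cell gene *Sox10* had 9 and 0 UMIs. Immune genes summed to 10.5 and 16.9 CPM, led by *Cd68*, with 4 of 10 at 0, *Ptprc* among them, and endothelial genes to 83.1 and 113 CPM, led by *Tek*. Within the *Bap1* ΔMPC-labelled library, *Lyz2* led the immune genes. Muscle stem cell genes, 3 of 7 at 0, summed to 2478 and 1851 UMIs (48.6 and 37.4 CPM), of which *Vcam1*, the sort marker, had 1916 and 1017. Mural genes summed to 68.2 and 52.3 CPM, led by *Abcc9*, and neuron genes to 237 and 549 UMIs (4.65 and 11.1 CPM), of which *Map2* alone had 67 and 380. *Abcc9* had 1168 and 412 of the 3479 and 2593 mural UMIs, and within the *Bap1* ΔMPC-labelled library *Notch3* led the mural genes. Their part in the ratios of the SMN complex genes was not tested.

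*Smn1* lies on chr13:100124852-100137690, *Gemin2* on chr12:59013393-59028470 and *Gemin8* on chrX:166170454-166190512, all on the plus strand of GRCm38. The 9 members are on 8 chromosomes, with *Gemin4* and *Gemin5* on chromosome 11. These positions are from GENCODE, whose starts differ by a few bases from those of RefSeq for *Smn1* and *Gemin2*. The 250 bases before the RefSeq start of *Smn1*, the core gene, and of *Gemin2* and *Gemin8*, the members with the largest gaps, are shown from RefSeq (GRCm38.p6), 5′ to 3′ on the strand of the gene. All 9 members matched a window of that table. The 6 letters CCGGAA, 1 form of ETS family motifs, were searched on both strands, so that TTCCGG counts too, and are in capitals. They occur in 12.03% of all 32851 windows of this length and in 2 of the 9 members, *Smn1* and *Gemin8*. The letters TGACGTCA, which read the same on both strands and are the full cAMP response element, occur in 1.55% of windows and in 1 member, *Gemin6*. Other forms of ETS family motifs were not searched and are not marked. A match of letters is a description, not a site.
*Smn1*, chr13:100124605-100124854: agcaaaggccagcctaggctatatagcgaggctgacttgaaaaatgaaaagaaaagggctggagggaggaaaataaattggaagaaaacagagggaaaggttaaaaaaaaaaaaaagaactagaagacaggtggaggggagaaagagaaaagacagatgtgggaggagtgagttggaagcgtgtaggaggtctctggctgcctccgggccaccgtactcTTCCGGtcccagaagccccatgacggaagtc
*Gemin2*, chr12:59013141-59013390: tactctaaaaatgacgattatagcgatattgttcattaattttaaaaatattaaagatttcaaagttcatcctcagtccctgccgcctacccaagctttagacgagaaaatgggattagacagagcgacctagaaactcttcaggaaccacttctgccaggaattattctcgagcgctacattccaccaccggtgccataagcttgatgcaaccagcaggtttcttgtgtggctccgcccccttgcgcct
*Gemin8*, chrX:166170204-166170453: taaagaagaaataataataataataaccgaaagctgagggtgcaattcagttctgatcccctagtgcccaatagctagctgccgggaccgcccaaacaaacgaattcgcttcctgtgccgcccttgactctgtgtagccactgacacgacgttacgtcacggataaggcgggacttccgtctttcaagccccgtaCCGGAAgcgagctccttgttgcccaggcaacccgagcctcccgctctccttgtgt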

How the data were processed

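FAPs of 1 *Bap1* WT and 1 *Bap1* ΔMPC library were measured with a droplet 3′ kit. The authors deposited UMI counts per gene and cell, not normalized, after filtering for quality, doublets and cells other than FAPs; those thresholds are not given in the sources used here. In the deposited counts every cell had 1501 to 4998 genes and under 5% mitochondrial UMIs. The submitters' processing notes name Cell Ranger 3.1.0, Seurat 3.2.1, R 3.6.1 and mm10. No cell was removed and no doublet caller was run here.

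UMIs were summed over cells and scaled to CPM of the group total. A count of 0 in 1 of the groups was replaced by 3 counts where all genes were compared, and genes entered with 20 or more UMIs. Exact intervals at 95% came from scipy 1.17.1 (Python 3.11.15). TMM factors came from edgeR 4.0.16 in R 4.3.3, which ran no test. The ratios were tested on simulated data. Thinning used 5000 UMIs. Positions and shared exons were read from the GENCODE vM21 annotation.

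Named in the text are all members, *Bap1*, the sort genes, and from each list on snRNP assembly, splicing, partners and turnover the genes over 1.5-fold with 100 or more UMIs, or else the most abundant gene. Of each list of cell type markers, the sum and the most abundant gene over both libraries are named, and in part also the most abundant gene within a single library. *Igf2bp1*, *Glod4*, *Snrpb* in its list, *Sox10*, *Pdgfra*, *Dpp4*, *Smoc2*, *Hbb-bs*, *Acta1* and the genes with 0 UMIs were named after their values were seen. The members and lists were chosen with earlier results of these data known. All value columns matched a sample. Alternatives changed the scaling, the cells kept, the depth, the thresholds of the cell groups, the fold and the minimum of UMIs. Proteins were not measured, and bulk RNA-Seq was not analysed here.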

Additional observations from a re-analysis of the deposited data

How the results depend on the processing

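The sum without *Strap* and *Gemin7* and the background of genes with as many UMIs as the members were chosen after seeing the data. Results here rest on counts without a test. No paired analysis was possible because cells of the libraries have no partners. Of the ratios of single members other than *Smn1*, 5 alternative values moved out of the reported interval and 2 reversed, and 14 values, these 2 among them, had the other sign. *Smn1* stayed within its interval over all cells, between -0.075 and 0.073. The ratio of *Strap* over all cells changed sign to -0.027 with TMM factors and to -0.014 without mitochondrial, ribosomal protein and the 50 most abundant genes. *Gemin2* lay between -1.19 and -0.81 in Dpp4-type cells and *Gemin8* between -1.15 and -0.55 in Cxcl14-type cells. *Gemin2* in Cxcl14-type cells lay between -0.81, with thinned cells, and 0.053.

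The sum over all cells moved to -0.098 with TMM factors, -0.085 without the abundant genes and -0.074 without *Strap* and *Gemin7*. In Dpp4-type cells it moved to -0.044 without the abundant genes and -0.11 without *Strap* and *Gemin7*. Dpp4-type over Cxcl14-type in the *Bap1* ΔMPC-labelled library moved to -0.017 with thinned cells. Cycling over other cells moved to 0.49 with TMM factors in the *Bap1* WT-labelled library, and without *Strap* and *Gemin7* to 0.89 there and 0.90 in the *Bap1* ΔMPC-labelled library. The share of cells with an *Smn1* UMI was 10.7% and 11.4% when thinned.

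Counts of members between the libraries became 2 over all cells with the smallest fold tried. In Dpp4-type cells they became 2 with thinned cells or the smallest fold tried, and 0 with a fold of 2 or 3. In Cxcl14-type cells they became 2 with thinned cells or the smallest fold tried, and 0 with *Cxcl14* at 2 or more or a fold of 2 or 3. Between Dpp4-type and Cxcl14-type cells of the *Bap1* WT-labelled library, where *Gemin5* lay at 1.52-fold, the count became 0 with TMM factors, without the abundant genes, without cells under percentile 2 and over percentile 98, without cycling cells, with a score of 15, with *Cxcl14* at 2, and with a fold of 2 or 3. It became 3 with thinned cells, *Cxcl14* at 10 or the smallest fold tried. In the *Bap1* ΔMPC-labelled library it became 0 with a fold of 2 or 3 and 1 with a minimum of 100 UMIs. The causes were not tested. Depth limits the members with few UMIs most: in Cxcl14-type cells *Gemin2* rests on 32 and 51 UMIs.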
